A study of Arabidopsis thaliana with 9 samples.

Results

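The 5 genes described here act on the level of the plant hormone auxin: GH3.3, GH3.5, GH3.9 and GH3.17, of the GH3 family of conjugating enzymes, and the auxin synthesis gene YUC4. Members were taken by their annotation, in a choice made with earlier results of these data known. Each is the only gene of its probe set, and together they are 5 of the 13286 genes that have a probe set of their own on the array. Their transcripts were measured by 9 Affymetrix arrays, each with RNA of Arabidopsis thaliana inflorescences whose flowers were no older than stage 12. All 9 samples share the ga1-3 rga rgl2 mutant background, which lacks normal gibberellin synthesis and the repressor proteins RGA and RGL2 of the DELLA class. RGA-GR Dex is the transgenic line of that background carrying RGA fused to the glucocorticoid receptor (GR), treated with the steroid dexamethasone (Dex). RGA-GR mock is the same transgenic line after mock treatment, and nontransgenic Dex is the background without the transgene, treated with Dex. Each group has 3 arrays, all of tissue taken at 4 h, and the series' design text calls the replicates biologically independent. The promoter that drives RGA-GR and the number of transgenic lines are not given in the sources used here.

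Auxin promotes growth and patterning in the inflorescence, where it marks the sites at which flowers form. Many GH3 enzymes join the free hormone, indole-acetic acid (IAA), to an amino acid, which stores it or leads it to breakdown, and several GH3 genes are themselves switched on by auxin. The YUC enzymes are flavin monooxygenases that carry out the last step of the main route from tryptophan to IAA. DELLA proteins such as RGA restrain gibberellin responses by binding transcription factors, and a GR fusion is held in the cytoplasm until Dex releases it into the nucleus.

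The deposited values are linear ratios, which compare arrays within a probe set and say nothing of which gene is more abundant. In the 4 GH3 genes the median ratio over the 9 arrays is exactly 1, and in YUC4 it is 0.523, for which the divisor is not known. Differences are between group means of the log2 ratio, with the moderated standard error (SE) and the adjusted p of limma over 17273 probe sets kept after a filter on low values. A call is an adjusted p under 0.05. All 5 genes passed the filter, and the 3 comparisons among these groups share arrays, so they are not independent. In whole tissue, fewer cells that express a gene and less RNA per cell cannot be told apart.

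Several control signals differed between the arrays. The poly-A spike-in probe sets had signal on replicate 3 of RGA-GR Dex and of RGA-GR mock and on all nontransgenic arrays (log2 medians from 0 to 1.25), and far lower values on replicates 1 and 2 of both transgenic groups (-3.73 to -3.23). All nontransgenic arrays therefore lie in the class with spike-in signal, and this class is not named in the labels. The 25S rRNA control ranged from 2.93 to 4.71 in RGA-GR Dex, from -1.01 to 4.15 in RGA-GR mock and from -4.12 to -3.58 in nontransgenic Dex on the log2 scale. Pollen markers (6 measured of 10) had array medians from -3.21 to -0.18 in RGA-GR Dex, from -0.77 to 0.13 in RGA-GR mock and from 0.64 to 0.90 in nontransgenic Dex. For tapetum markers (SHT, ATA27 and AMS, 3 of 11) the ranges were -0.79 to -0.14 in RGA-GR Dex, -0.12 to 0.12 in RGA-GR mock and 0.00 to 0.37 in nontransgenic Dex. These 3 did not move together. Against nontransgenic Dex, SHT differed by -2.01 in RGA-GR Dex and -1.93 in RGA-GR mock. ATA27 differed by -1.15 and -0.26, and AMS by -0.03 and 0.28. The green tissue markers (2 measured of 5) were RCA, which encodes Rubisco activase, and LHCB4.1, a light-harvesting protein gene. They ran the other way from the pollen markers, at -0.04 to 0.06 in RGA-GR Dex, 0.00 to 0.20 in RGA-GR mock and -0.94 to -0.86 in nontransgenic Dex. No measured marker had a deposited ratio of 0 before log2 was taken. The 9 flower and inflorescence markers are not analysed here, so the labelled tissue was not checked against them. For the spike-in class, a fit with the class as a block and the values within the class with signal are given below. The part of any of these signals in the differences between the transgenic line and the nontransgenic plants was not itself tested.

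GH3.3 encodes an enzyme that conjugates IAA with amino acids and is known for its part in adventitious rooting. Its ratios were 1.94, 1.23 and 1.50 on the RGA-GR Dex arrays, 1.17, 0.981 and 1 on the RGA-GR mock arrays, and 0.464, 0.588 and 0.694 on the nontransgenic Dex arrays. The 3 groups were fully apart: every RGA-GR Dex array lay above every RGA-GR mock array, and every array of the transgenic line lay above every nontransgenic array. Mean ratios were 1.55 ± 0.357 in RGA-GR Dex, 1.05 ± 0.103 in RGA-GR mock and 0.582 ± 0.115 in nontransgenic Dex (SD, n = 3 each). GH3.3 was the least variable of the 5, with a within-group SD of 0.27 on the log2 scale, and 34.3% of the probe sets kept had a smaller one.

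GH3.5, listed as WES1 in the probe table, encodes an enzyme that conjugates IAA and also acts on salicylic acid. Its ratios were 1, 1.77 and 2.57 in RGA-GR Dex, 0.829, 1.36 and 1.77 in RGA-GR mock, and 0.586, 0.659 and 0.552 in nontransgenic Dex. Both groups of the transgenic line lay above all nontransgenic arrays, while RGA-GR Dex and RGA-GR mock overlapped. Mean ratios were 1.78 ± 0.786 in RGA-GR Dex, 1.32 ± 0.472 in RGA-GR mock and 0.599 ± 0.0547 in nontransgenic Dex (SD, n = 3 each). Replicate 1 was the lowest and replicate 3 the highest array in both transgenic groups, and this shared pattern gives GH3.5 a within-group SD of 0.52.

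GH3.9, a family member known for its effect on root growth, had ratios of 1.88, 0.971 and 0.878 in RGA-GR Dex, 1.91, 1.56 and 1.46 in RGA-GR mock, and 0.851, 1 and 0.659 in nontransgenic Dex. RGA-GR mock was the high group here, above all nontransgenic arrays. In RGA-GR Dex, replicate 1 stood with the mock arrays, and replicates 2 and 3 lay within the range of the nontransgenic arrays. Mean ratios were 1.24 ± 0.554 in RGA-GR Dex, 1.64 ± 0.234 in RGA-GR mock and 0.837 ± 0.171 in nontransgenic Dex (SD, n = 3 each).

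GH3.17, whose enzyme joins IAA preferentially to glutamate, had ratios of 0.950, 1.74 and 1.07 in RGA-GR Dex, 0.794, 0.250 and 0.975 in RGA-GR mock, and 1, 1.16 and 1.18 in nontransgenic Dex. Its nontransgenic arrays were close together and above all RGA-GR mock arrays. Mock replicate 2 was by far the lowest array and Dex replicate 2 the highest, so the spread within the transgenic line comes largely from a single pair. Mean ratios were 1.25 ± 0.429 in RGA-GR Dex, 0.673 ± 0.377 in RGA-GR mock and 1.11 ± 0.0978 in nontransgenic Dex (SD, n = 3 each).

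YUC4, the synthesis gene, is known to act with YUC1 in flower development. It had ratios of 0.508, 0.819 and 1.13 in RGA-GR Dex, 0.884, 0.523 and 0.284 in RGA-GR mock, and 0.167, 0.409 and 1.06 in nontransgenic Dex. All 3 groups overlapped, and the lowest and highest arrays of the nontransgenic group spanned nearly the whole range of the gene. Mean ratios were 0.818 ± 0.309 in RGA-GR Dex, 0.564 ± 0.302 in RGA-GR mock and 0.544 ± 0.460 in nontransgenic Dex (SD, n = 3 each). YUC4 had the largest within-group SD of the 5, at 0.96, and 89.5% of the probe sets kept had a smaller one.

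**Figure D1:**
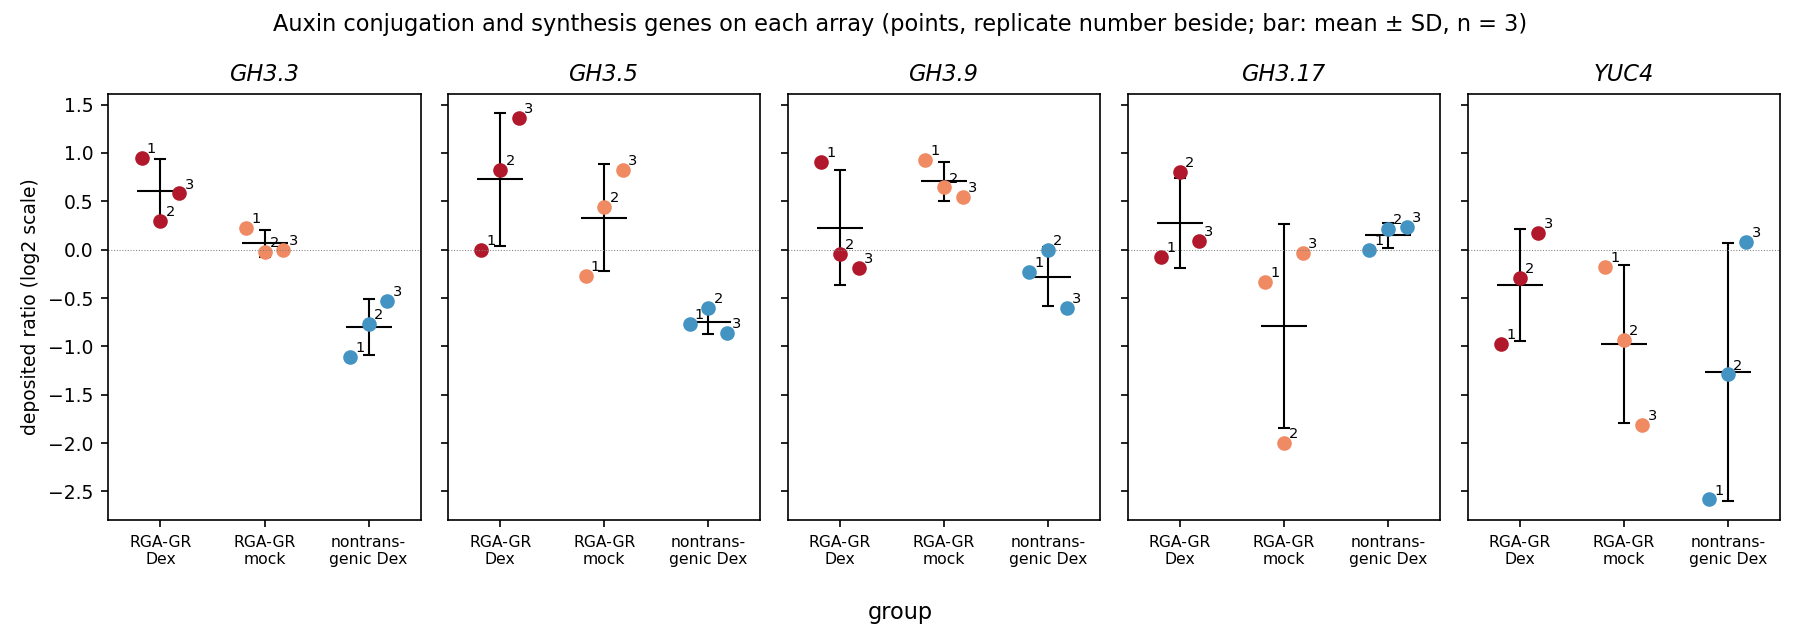
Log2 of the deposited ratio (vertical axis, log2 scale) of the 5 genes on each of the 9 arrays, with RGA-GR Dex, RGA-GR mock and nontransgenic Dex from left to right. Points are arrays with their replicate number, horizontal bars are means and error bars are SD (n = 3). GH3.3 and GH3.5 lie higher on all 6 transgenic arrays than on the 3 nontransgenic arrays, while the groups of YUC4 overlap.

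Within the transgenic line, Dex was set against mock treatment to find transcripts that respond when RGA-GR is activated. These groups differ in Dex as well as in the activity of the fusion, and the effects of Dex and RGA-GR cannot be told apart in this comparison. No member passed the threshold, where 0% of the 17273 probe sets were called in limma, 1525 had an unadjusted p under 0.05 and the smallest adjusted p was 0.143. The groups did not overlap for 1 of the 5 genes, GH3.3, against 11.5% of all probe sets. The median difference was 0.54 over the 5 genes, which is the value of GH3.3 alone, and 0.08 over all probe sets kept.

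GH3.3 was 1.46-fold higher in RGA-GR Dex (0.54 ± 0.23 SE, 95% interval of the fold from 1.03 to 2.07), with higher values in 3 of 3 pairs of arrays of the same number, by 0.73, 0.32 and 0.58. Its limma p was 0.0363 before adjustment and 0.545 after it, or 0.154 after it with the pairs as a block, and 9.54% of all probe sets kept had a larger difference. GH3.5 was likewise higher in 3 of 3 pairs, by 0.27, 0.38 and 0.54, with a mean difference of 0.40 ± 0.35 and an adjusted p of 0.749, or 0.385 with the block. The interval for GH3.5 reaches from -0.37 to 1.17, so both no change and a 2.24-fold higher level lie within it. GH3.17 was also higher in 3 of 3 pairs. Of all probe sets kept, 59.1% had a higher mean in RGA-GR Dex, and the share higher in 3 of 3 pairs was not counted.

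GH3.17 had the largest mean difference of the 5 in this comparison, 1.06 ± 0.45 or 2.09-fold, with an unadjusted p of 0.0405 and an adjusted p of 0.550, or 0.226 with the block. Its 3 pairs differed by 0.26, 2.80 and 0.13, and without pair 2 the difference was 0.19. GH3.9 was the one member with a lower mean in RGA-GR Dex than in RGA-GR mock, by -0.48 ± 0.29 (adjusted p = 0.650, or 0.265 with the block). That value also rests on some of the pairs, with -0.02, -0.69 and -0.73 in pairs 1, 2 and 3. YUC4 differed by 0.61 ± 0.80 (adjusted p = 0.836, or 0.647 with the block), with pairs of -0.80, 0.65 and 1.99, and without pair 3 its difference was -0.08.

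Both groups received Dex in the second comparison, which sets RGA-GR Dex against the nontransgenic plants. Activity of RGA-GR, the transgene itself and other differences between the lines cannot be told apart in it. GH3.3 and GH3.5 were called higher in RGA-GR Dex, and the other 3 genes did not pass. Over all probe sets kept, 27% were called in this comparison, and calls of higher levels in RGA-GR Dex made up 17.5% of all probe sets kept, so 2 calls among 5 genes stand beside a background in which calls were common. The groups did not overlap for the same 2 genes, against 46.2% of all probe sets. The median difference was 0.90 over the 5 genes and 0.14 over all probe sets kept. The value of 0.90 is that of YUC4 alone, which was not called and whose groups overlapped, so it shows no shared shift. Subtracting each array's median moved the median of all probe sets to -0.05, and GH3.3 was then 1.22 higher and GH3.5 1.28 higher, both still past the threshold.

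GH3.3 was 2.66-fold higher in RGA-GR Dex (1.41 ± 0.23, 95% interval of the fold from 1.88 to 3.77, limma adjusted p = 0.00452), and 5.18% of all probe sets kept had a larger difference. It passed in each of 23 processing alternatives, with differences from 1.22 to 1.57. GH3.5 was 2.77-fold higher (1.47 ± 0.35, interval from 1.63 to 4.72, limma adjusted p = 0.0138), and 4.60% of probe sets had a larger difference. It passed in 21 of 23 alternatives. Without RGA-GR Dex replicate 2 its difference was 1.42 with an adjusted p of 0.0579, and leaving out pair 2 gave the same difference with an adjusted p of 0.0830. Both genes lay above the filter's level on none of the nontransgenic arrays and on all 6 transgenic arrays. A probe set with a median ratio of 1 passes this filter whatever its pattern, as 15062 of 15062 did, and without any filter the adjusted p was 0.00409 for GH3.3 and 0.0154 for GH3.5.

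GH3.9 differed by 0.50 (SE 0.29, adjusted p = 0.214) between RGA-GR Dex and nontransgenic Dex, with an interval from -0.13 to 1.14. GH3.17 differed by 0.12 ± 0.45 (adjusted p = 0.864), with an interval from -0.88 to 1.13, and the sign turned without RGA-GR Dex replicate 2 (-0.14) and with array medians subtracted (-0.07). YUC4 differed by 0.90 ± 0.80 (adjusted p = 0.424), with an interval from -0.86 to 2.66 that allows changes of either sign.

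Within the arrays that had spike-in signal, which left RGA-GR Dex replicate 3 against the 3 nontransgenic arrays, GH3.3 was 1.38 higher and GH3.5 2.11 higher in RGA-GR Dex. GH3.9 differed by 0.09, GH3.17 by -0.06 and YUC4 by 1.44 on those 4 arrays, with no test of their own. Arrays without spike-in signal hold no nontransgenic sample and give no value for this comparison.

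In the third comparison RGA-GR mock, which received no Dex, was set against nontransgenic Dex. These groups differ in the transgene, in Dex and in any other difference between the plant lines, which cannot be told apart. GH3.3 and GH3.9 were called higher in RGA-GR mock, and GH3.5 was close to the threshold. Over all probe sets kept, 15.3% were called, and calls of higher levels in RGA-GR mock made up 9.07%. The groups did not overlap for 4 of the 5 genes, all but YUC4, against 40% of all probe sets. The median difference was 0.87 over the 5 genes, which is the value of GH3.3 alone. It was 0.07 over all probe sets kept, which array medians moved to -0.07.

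GH3.3 was 1.82-fold higher in RGA-GR mock (0.87 ± 0.23, interval of the fold from 1.29 to 2.58, limma adjusted p = 0.0335), and 11.3% of all probe sets kept had a larger difference. GH3.9 was 1.98-fold higher (0.99 ± 0.29, interval from 1.27 to 3.08, limma adjusted p = 0.0448). Neither call held widely: GH3.3 passed in 10 of 23 alternatives with differences from 0.71 to 1.003, and GH3.9 in 8 of 23 with differences from 0.70 to 1.12. With quantile normalization the adjusted p was 0.128 for GH3.3 and 0.143 for GH3.9, and without RGA-GR mock replicate 2 it was 0.0922 for GH3.3 and 0.113 for GH3.9. GH3.5 was 2.11-fold higher (1.07 ± 0.35, interval from 1.24 to 3.59, limma adjusted p = 0.0605). With the pairs of the transgenic line as a block its adjusted p was 0.0407, and it passed in 6 of 23 alternatives.

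GH3.17 was the one member whose RGA-GR mock arrays all lay below the nontransgenic arrays, with a difference of -0.94 ± 0.45 (adjusted p = 0.178) that was -0.33 without pair 2. YUC4 differed by 0.29 ± 0.80 (adjusted p = 0.829), with the opposite sign in 3 of 22 alternatives. In the class with spike-in signal, RGA-GR mock replicate 3 against the nontransgenic arrays gave 0.80 for GH3.3, 1.57 for GH3.5, 0.83 for GH3.9, -0.19 for GH3.17 and -0.55 for YUC4.

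**Figure D2:**
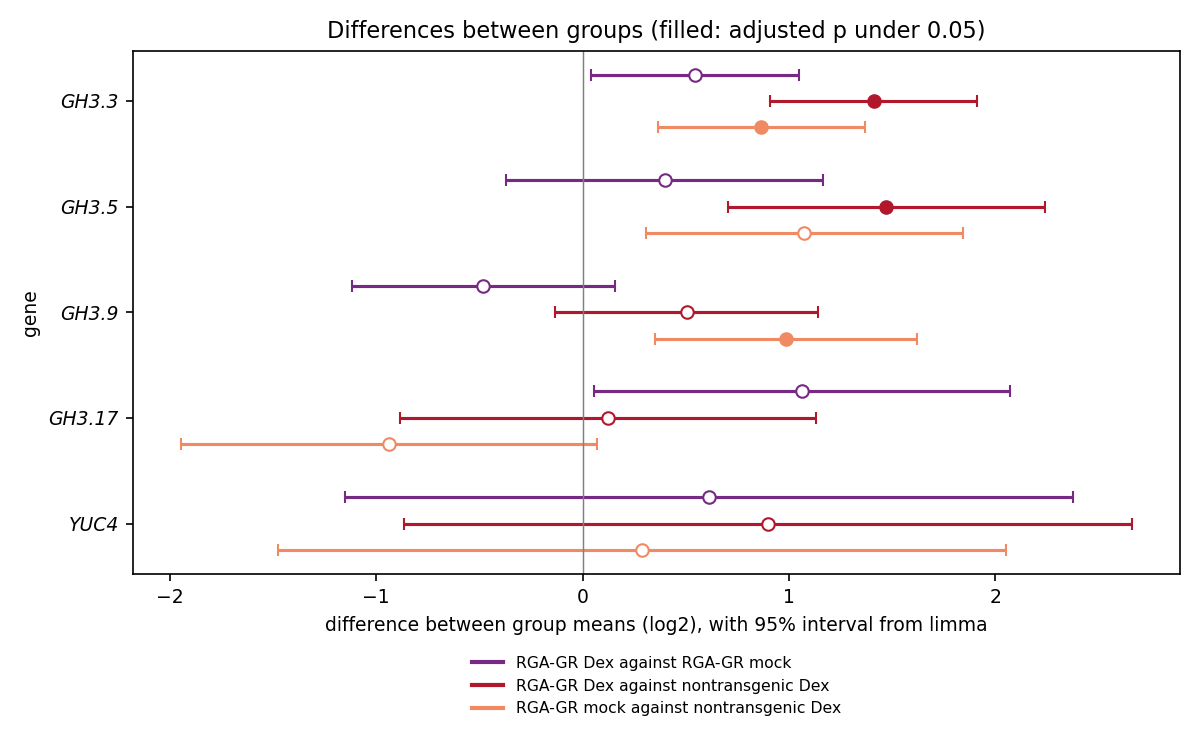
Differences between group means (horizontal axis, log2) for the 5 genes, with 95% intervals from limma (n = 3 arrays per group); filled points have an adjusted p under 0.05. The filled points are GH3.3 and GH3.5 for RGA-GR Dex against the nontransgenic plants (1.41 and 1.47), GH3.3 and GH3.9 for RGA-GR mock against nontransgenic Dex (0.87 and 0.99), and none is filled for Dex against mock in the transgenic line.

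**Figure D3:**
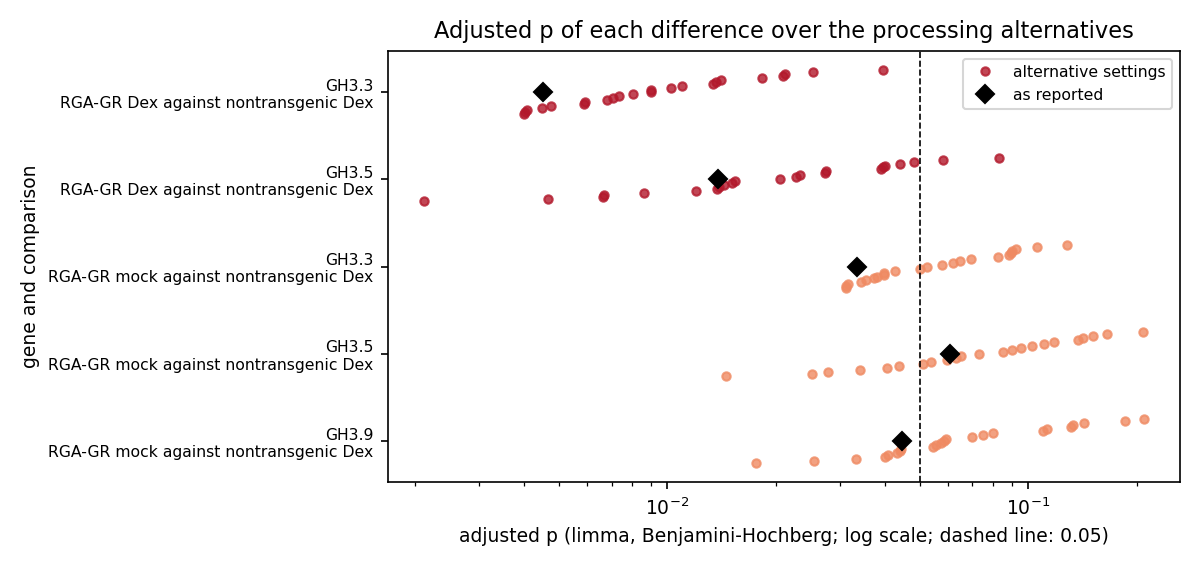
Adjusted p (horizontal axis, log scale) of 5 gene differences under 23 processing alternatives (points) and as reported (diamonds), with a dashed line at 0.05. GH3.3 stays left of the line throughout in RGA-GR Dex against nontransgenic Dex, while GH3.3, GH3.5 and GH3.9 in RGA-GR mock against nontransgenic Dex fall on both sides of it.

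Dividing one gene by another on the same array takes out any scaling of the array as a whole. The log2 ratio of GH3.3 over GH3.17 was 1.03, -0.51 and 0.49 in RGA-GR Dex, 0.56, 1.97 and 0.04 in RGA-GR mock, and -1.11, -0.98 and -0.76 in nontransgenic Dex. For GH3.5 over GH3.17 it was 0.07, 0.02 and 1.27 in RGA-GR Dex, 0.06, 2.44 and 0.86 in RGA-GR mock, and -0.77, -0.82 and -1.09 in nontransgenic Dex. In both, all 6 transgenic arrays lay above the 3 nontransgenic arrays. The difference between RGA-GR Dex and nontransgenic Dex was 1.29 for GH3.3 over GH3.17 and 1.35 for GH3.5 over GH3.17. Each had a two-sided exact permutation p of 0.1, the smallest that 3 arrays against 3 can give, and 0.5 after adjustment over the 30 ratios and comparisons. Of these 30, 6 had groups that did not overlap and 24 overlapped, and no share over ratios of other genes was computed. The 30 share genes and arrays, so they are not independent. GH3.3 and GH3.5 alone already lay higher on all 6 transgenic arrays than on the nontransgenic arrays. Besides GH3.3 and GH3.5 over GH3.17 in both comparisons with the nontransgenic plants and GH3.3 over GH3.9 between the treatments, GH3.9 over GH3.17 was 1.93 higher in RGA-GR mock than in nontransgenic Dex, with the same p.

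GH3.3 over GH3.9 did not overlap between the treatments of the transgenic line. It was 0.04, 0.34 and 0.77 in RGA-GR Dex, above the -0.71, -0.67 and -0.55 of RGA-GR mock on every array, a difference of 1.02 (two-sided exact permutation p = 0.1, adjusted p = 0.5). The nontransgenic arrays, at -0.88, -0.77 and 0.07, overlapped with RGA-GR Dex. GH3.3 over GH3.5 overlapped in all groups, with means of -0.12 ± 0.94 in RGA-GR Dex, -0.26 ± 0.68 in RGA-GR mock and -0.06 ± 0.35 in nontransgenic Dex (SD, n = 3 each).

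**Figure D4:**
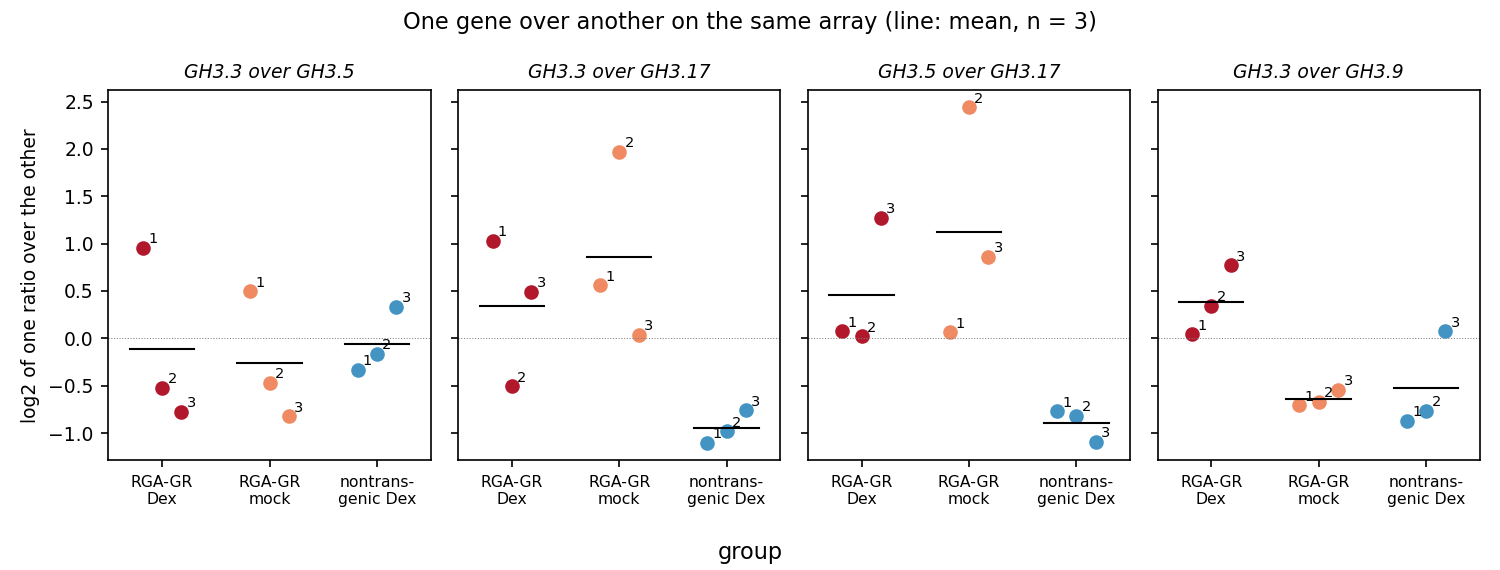
Log2 of one gene's ratio over another's on the same array (vertical axis) for 4 gene pairs, with RGA-GR Dex, RGA-GR mock and nontransgenic Dex from left to right. Points are arrays with their replicate number and lines are means (n = 3). GH3.3 and GH3.5 over GH3.17 are higher on all transgenic arrays, and GH3.3 over GH3.9 is higher on all RGA-GR Dex arrays than on all RGA-GR mock arrays.

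Over the 9 arrays, GH3.3 varied most like GH3.5 among the 5 (Pearson r = 0.66 over 9 arrays), then GH3.9 (0.55) and YUC4 (0.53), and hardly with GH3.17 (-0.03). The correlation between GH3.9 and GH3.17 was negative (-0.48). These correlations are descriptions, since the 9 points share the 3 groups and the pairs of the transgenic line. The nearest patterns were sought among 9627 other probe sets with a single gene that passed the filter. They were picked for their correlation over these same 9 arrays. High r values and group differences like those of the member therefore come with the choice and are no separate result. The pattern most like that of GH3.3 was AT2G01820 (r = 0.98), followed by AT1G75420 and AT1G04790 (0.96 each). GH3.5 was followed most closely by AT3G15440 (0.99), AT1G61690 and the autophagy gene ATG8F (0.98 each), and the log2 level of AT3G15440 was 2.84 higher in RGA-GR Dex than in the nontransgenic plants. GH3.9 had AT3G09970, AT3G05340 and AT1G13650 nearest (0.96 each), and the log2 level of AT1G13650 was 4.82 higher in RGA-GR mock than in nontransgenic Dex. For GH3.17 the nearest were AT3G22290 (0.97), AT5G05430 and AT1G22960 (0.95 each). For YUC4 they were AT2G43945 (0.97), DER1 (0.92) and AT5G38100 (0.89).

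The rest of the auxin pathway was covered thinly. Of 130 other loci in 9 auxin lists, 24 had a probe set that the table names for them alone, and 9 passed the filter. In RGA-GR Dex against RGA-GR mock none of the 9 was called in limma (median difference 0.18). RGA-GR Dex against nontransgenic Dex had 2 called higher and 0 called lower (median 0.22). That count is near the 17.5% of all probe sets called higher there. In RGA-GR mock against nontransgenic Dex none was called (median -0.13). The lists of auxin receptors, ARF transcription factors, auxin transport and synthesis outside the YUC family hold no gene that the probe table names as the only gene of a probe set. That table leaves 8730 of 22746 probe sets unnamed, and these lists are not analysed here.

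Within the GH3 list, 11 of 19 loci had a probe set of their own and 6 were kept. Besides the members these were AT5G13350 and AT5G13380, which are listed by family. Whether these 2 act on auxin is not shown by these data. The ratios of AT5G13380 were 1, 1.27 and 1.08 in RGA-GR Dex, 0.841, 1.10 and 1.02 in RGA-GR mock, and 0.597, 0.594 and 0.717 in nontransgenic Dex. This is the same split between the lines as in GH3.3 and GH3.5, with smaller differences: AT5G13380 rose by 0.81 ± 0.23 in RGA-GR Dex against nontransgenic Dex (limma adjusted p = 0.027). AT5G13350 ran the other way, with every array of the transgenic line below every nontransgenic array, and did not pass (-2.06 ± 0.95 in RGA-GR Dex against nontransgenic Dex, adjusted p = 0.132). The family counts were thus 0 of 6 in RGA-GR Dex against RGA-GR mock and 3 of 6 higher in RGA-GR Dex against the nontransgenic plants. In the latter, 17.5% of all probe sets were called higher. In RGA-GR mock against nontransgenic Dex 2 of 6 were higher, where 9.07% of all probe sets were. All of these calls except that of AT5G13380 are of members, which were chosen with earlier results of these data known. The counts are therefore no test of the family against all probe sets. GH3.1, AT1G23160, AT5G51470, AT1G48670 and AT1G48660 did not pass the filter and have no test.

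Of the 11 YUC loci, 4 had a probe set of their own and YUC2, YUC4 and YUC6 were kept, with no call in any comparison. YUC2, a synthesis gene active in flowers and leaves, had ratios of 1.08, 0.503 and 1 in RGA-GR Dex, 0.861, 0.712 and 0.883 in RGA-GR mock, and 1.01, 1.27 and 1.15 in nontransgenic Dex. Its difference was -0.48 ± 0.30 between RGA-GR Dex and nontransgenic Dex (adjusted p = 0.257), of the opposite sign to YUC4. YUC6, also a synthesis gene, varied widely within the nontransgenic group (0.170, 1.73 and 2.04), as YUC4 did, and differed by 0.22 ± 0.80 there (adjusted p = 0.861). YUC11 did not pass the filter.

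Among auxin response genes, HAT2, an auxin-induced homeodomain transcription factor gene, rose by 0.92 ± 0.24 in RGA-GR Dex against nontransgenic Dex (limma adjusted p = 0.020). Its ratios were 1.02, 1.48 and 1.73 in RGA-GR Dex, 0.822, 1 and 1.302 in RGA-GR mock, and 0.626, 0.803 and 0.763 in nontransgenic Dex. HAT2 was higher in 3 of 3 pairs after Dex, by 0.31, 0.56 and 0.41, with a mean of 0.43 that did not pass (adjusted p = 0.632). Among the other genes of the auxin lists that passed the filter, besides the members, AT5G13380 and AT1G14130 were also higher in 3 of 3 pairs. They were not called in RGA-GR Dex against RGA-GR mock. Genes that did not pass the filter are left out here, and the share over all probe sets was not counted. The Aux/IAA repressor genes IAA18 and IAA30 differed by 0.42 and 0.58 between RGA-GR Dex and nontransgenic Dex, with adjusted p values of 0.305 and 0.236. The auxin glucosyltransferase gene UGT74D1 differed by -0.09 and AT1G14130 by -0.04.

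**Figure D5:**
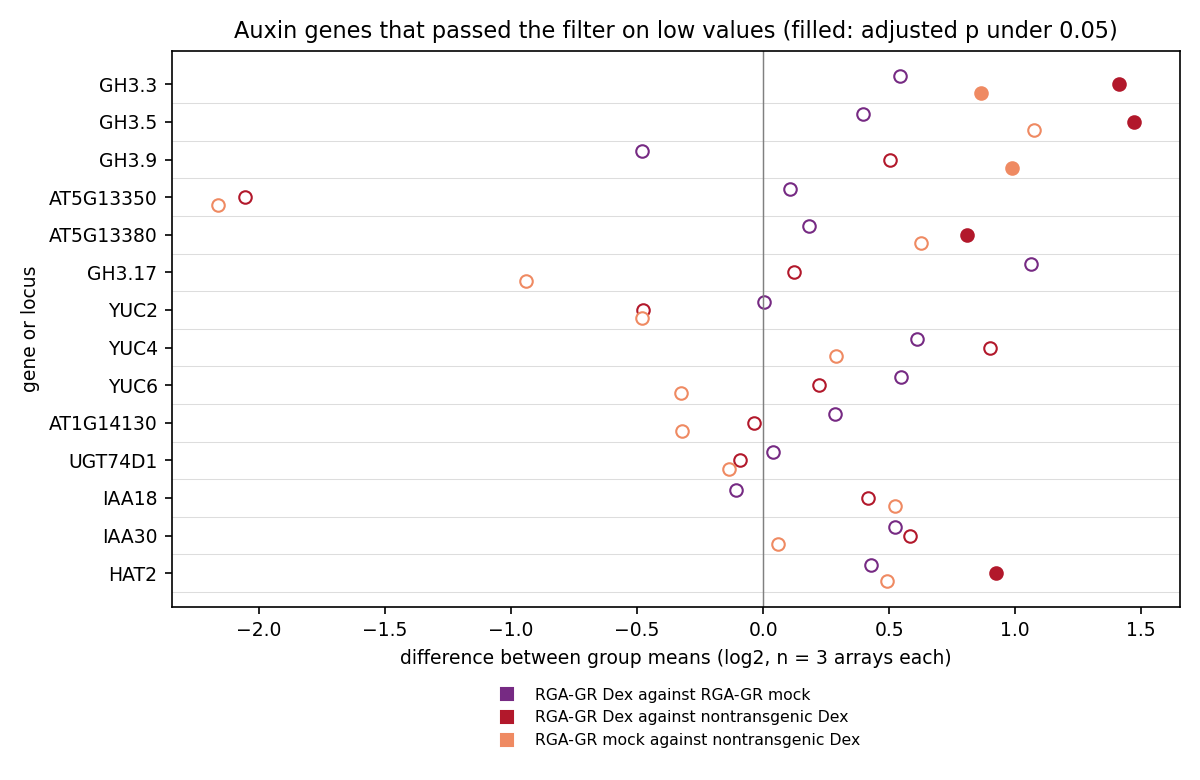
Differences between group means (horizontal axis, log2, n = 3 arrays per group) of the 14 genes of the auxin lists that passed the filter on low values. Filled points have an adjusted p under 0.05. GH3.3, GH3.5, AT5G13380 and HAT2 are filled for RGA-GR Dex against the nontransgenic plants, and AT5G13350 lies farthest to the left in both comparisons with the nontransgenic plants.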

How the data were processed

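RNA from 9 inflorescence samples was labelled with biotin for Affymetrix arrays, per the labels' protocols. The submitters' processing notes name GCOS and give no version. The authors deposited linear ratios, whose row median of 1 in most probe sets shows division by that median. The scaling of arrays and the handling of dim probe sets are not given in the sources used here. The tests were planned for intensities. On ratios the filter and the variance trend, which follow the mean log ratio, mean less.

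Genes were named through a probe table and the TAIR10.1 gene table: of 22746 probe sets besides 64 controls, 13513 have 1 gene, 503 several and 8730 no name. The filter kept 17273 probe sets that exceeded the 40th percentile in 3 or more of the 9 arrays. The log2 ratios were fitted with limma 3.58.1 in R 4.3.3 (lmFit and eBayes with a variance trend; two-sided p adjusted by Benjamini-Hochberg over all kept, threshold 0.05) over 3 groups with 6 residual degrees of freedom, after a check on simulated data. Precision is limited by 3 arrays per group, with a median SE of a difference of 0.263. Ratios between genes were compared by exact permutation.

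Deviations from group means correlated between RGA-GR Dex and RGA-GR mock arrays of the same number (r = 0.332, 0.118 and 0.325), and on this basis, with none in the labels, these were treated as pairs in the alternatives with a block or a pair left out, while the reported fit has no block. Nontransgenic numbers did not pair (r from -0.039 to 0.036).

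The genes named are the 5 members, every other measured GH3 and YUC gene, the 3 genes with the lowest p in RGA-GR Dex against nontransgenic Dex of each other auxin list, and each member's 3 nearest patterns. Members and lists were chosen with earlier results of these data known. The alternatives were quantile normalization, array medians, an offset of 0.0894, no filter or one at the 60th percentile, other eBayes settings, only the arrays compared, replicate and spike-in blocks, and arrays or pairs left out. Figures were drawn with matplotlib 3.10.9.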

Additional observations from a re-analysis of the deposited data

How the results depend on the processing

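Over 23 alternatives (22 for YUC4, which the filter at the 60th percentile dropped), the 15 gene differences gave 342 values, of which 299 kept their direction and side of the threshold, 30 lost a call, 6 gained one and 7 turned sign in differences that were not called. In RGA-GR Dex against RGA-GR mock, no member passed in any alternative, and over all probe sets 1 was called with eBayes without trend, 2 without pair 1, 13 with the replicate block within the transgenic line, and 0 to 15 with single arrays left out (15 without RGA-GR Dex replicate 1). In RGA-GR Dex against nontransgenic Dex, 2 members passed except without pair 2 of the transgenic line (1) and with single arrays left out (1 to 2, the lowest without RGA-GR Dex replicate 2). All calls there numbered 2906 with quantile normalization, 1134 without pair 2 and 1874 to 4881 with single arrays left out. In RGA-GR mock against nontransgenic Dex, no member (0) passed with quantile normalization, with array medians subtracted, without pair 2 or without pair 3, and 1 passed with no filter, with either other eBayes setting, with only the 6 arrays compared and with the spike-in class as a block. Both replicate blocks gave 3 members there, and single arrays left out gave 0 to 3. All calls there numbered 1123 with quantile normalization, 1412 with the spike-in class as a block, 0 without pair 2, and 0 to 2773 with single arrays left out (0 without RGA-GR mock replicate 2). The replicate block within the transgenic line changed no other member's call. Array medians moved the share of calls that were higher to 43.7%, against 65.0% as reported, for RGA-GR Dex against nontransgenic Dex, and to 37.3%, against 59.4%, for RGA-GR mock against nontransgenic Dex. The cause of these changes was not tested. Where arrays were left out, the fits also had fewer arrays, and the part of that was not tested either. Probe sets with a median ratio under 1, such as that of YUC4, had a median within-group SD of 1.04 against 0.302 for the others, which limits what can be seen for them.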
